A study of Danio rerio with 5 samples.

Results

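Across single heart cells sorted from injured zebrafish, 93 genes were high on the plate of 3 days post-cryo-injury (dpci) and low on the plates before and after it. They were chosen by a fixed rule on summed molecule counts. A member had a level of at least 30 CPM at 3 dpci, CPM being UMIs scaled to the same total on each plate, and this level was at least 2 times the 1 dpci level and at least 2 times the level on each of 3 plates of 7 dpci. Genes of several large families were left out by their symbols. The rule also leaves out egr1, jun, fosab and atf3, and fosab matched no symbol. The 93 members were 3.63% of the 2562 genes that had 30 CPM at 3 dpci after the exclusions by name, and 17937 gene IDs had any molecule. Of the members, 87 carried a gene symbol and 6 were known only by an Ensembl ID. The exclusions by name removed CACNB1 and EIF4E3, which met the other conditions.

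The cells came from adult hearts of TgBAC(nppa:mCitrine) zebrafish in the TL background. All groups carried this transgene, in which regulatory sequence of nppa, a gene switched on in stressed and border zone heart muscle, drives a yellow fluorescent protein, and all were cryo-injured, which means that a cold probe froze part of the ventricle. Fluorescent cells were sorted 1 per well into 384-well plates and read by SORT-seq, which labels every captured transcript with a random barcode, the unique molecular identifier (UMI), and thus counts molecules rather than their PCR copies. There was 1 plate of 1 dpci, 1 plate of 3 dpci and 3 plates of 7 dpci, and the methods give 4 hearts per time point without saying which heart went into which plate. The p-values below therefore measure only the spread between plates, which may be technical.

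Wells with at least 500 UMIs outside the spike-in RNAs were kept, which gave 319 wells of 1 dpci, 300 of 3 dpci and, for the plates numbered 1 to 3 of 7 dpci, 190, 247 and 246. They held between 330335 UMIs (plate 1 of 7 dpci) and 1479774 UMIs (1 dpci), with 906926 at 3 dpci. Per well, the median was 1042 to 2728 UMIs. Clustering of these wells gave 5 clusters called cardiomyocyte-like (clusters 1 to 5), 1 unnamed cluster with endothelial and epicardial or fibroblast markers (cluster 6, 35 wells) and 1 macrophage-like cluster (cluster 7, 27 wells). Of the cardiomyocyte markers, 10 to 14 were found in at least 50% of wells in each of clusters 1 to 5, and 11 and 13 in clusters 6 and 7, so these markers do not set the classes apart. At least 3 cardiomyocyte markers were raised only in clusters 2 and 5, whereas 10 endothelial or endocardial markers were raised in cluster 6 and 14 macrophage markers in cluster 7. Clusters 6 and 7 held 35 wells at 1 dpci, 21 at 3 dpci and 2 on each plate of 7 dpci, and the cardiomyocyte-like wells held 66.9%, 80.2%, 97.6%, 98.5% and 96.0% of the UMIs in plate order. The labels call the cells border zone cardiomyocytes of the ventricle, and 18 cardiomyocyte marker IDs summed to 93594 to 217518 CPM per plate, with 1 or 2 of them at 0. Markers of other cells differed in their course. The 18 macrophage marker IDs summed to 1687 CPM at 1 dpci, 1116 CPM at 3 dpci and 127 to 218 CPM at 7 dpci, where 9 to 12 of them were at 0. The 11 endothelial or endocardial marker IDs summed to 448 CPM at 1 dpci, 355 CPM at 3 dpci and 5.47 to 33.3 CPM at 7 dpci, where 6 to 9 were at 0. The smooth muscle or mural markers did not follow this course, with sums of 379 CPM at 1 dpci, 252 CPM at 3 dpci and 862, 191 and 303 CPM at 7 dpci, and those of T, NK or B cells were highest on plate 1 of 7 dpci (78.9 CPM). The names of the deposited tables carry sequencing run codes, shared by the plates of 1 and 3 dpci and different for those of 7 dpci, so run and time point cannot be told apart between 7 dpci and the other days.

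In the injured zebrafish heart, cardiomyocytes next to the wound, the border zone, partly dismantle their contractile apparatus, re-enter the cell cycle and later mature again. Before and during this, heart muscle cells meet protein damage, altered fuel supply, cytokines and growth factors, and respond through chaperones, kinase pathways with built-in feedback inhibitors, and transcription factors. Wound healing also brings in macrophages and activates the endocardium and the epicardium, the inner and outer cell layers of the heart.

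Together the members took 1.12% of all UMIs at 3 dpci, against 0.361% at 1 dpci and, at 7 dpci, 0.184%, 0.202% and 0.195%. These differences follow from the rule and are a description with no test, as are all levels at 3 dpci below. Single members at 3 dpci ranged from 30.9 to 847 CPM with a median of 59.6 CPM, and the median ratio of 3 dpci to the next highest plate was 2.58. This ratio was under 3 for 57 members and over 5 for 9, with a level of 0 or under 3 UMIs set to 3 UMIs. The next highest plate was 1 dpci for 61 members and a 7 dpci plate for 32. Exact 95% intervals of the ratio, which cover counting error only, lay above 1 for 89 members. The other 4 were GNB5, KLF12, ZRANB1 and ENSDARG00000042558. The rule had already required this ratio to be at least 2, so the intervals describe counting error and are no support for the peak.

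Per well, the members took a median of 0.791% of UMIs at 3 dpci, 0.285% at 1 dpci and 0.106% to 0.134% at 7 dpci. The ranges of the wells overlapped on every plate, since each plate had wells in which no member was counted. The median number of members with a UMI per well was 10 at 3 dpci, against 5 at 1 dpci and 1, 2 and 2 on the later plates. When each well was thinned to 1000 UMIs, leaving out shallower wells (59 at 3 dpci, 36 at 1 dpci and 86, 40 and 44 at 7 dpci), these medians were 6, 2 and 1, 1 and 1. The median well at 3 dpci thus held more of the members, and not only the plate sum. These are the wells whose sums chose the members, so this is a description and no separate support.

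**Figure D1:**
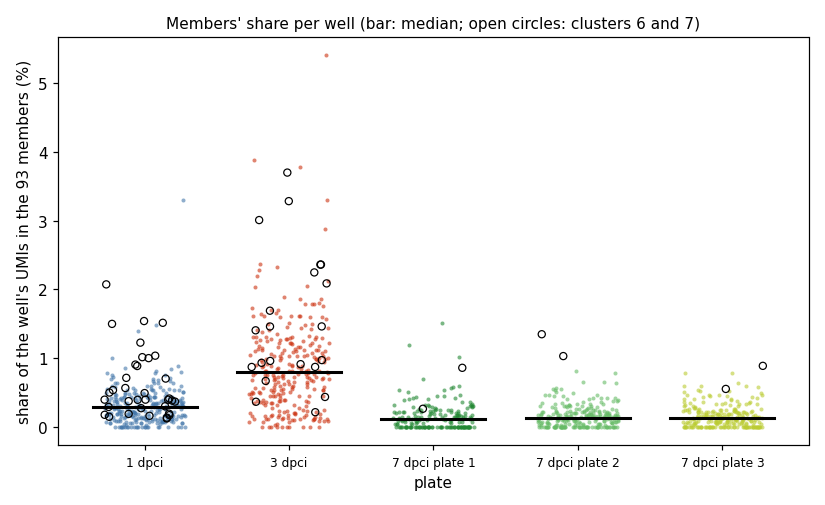
Share of each well's UMIs (%, vertical axis) that fell on the 93 members, by plate; each dot is 1 well, black bars are medians, and open circles are wells of clusters 6 and 7. The 3 dpci median of 0.791% lies above the medians of the other 4 plates, 0.106% to 0.285%, while single wells overlap between all plates.

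The members' molecules did not all come from the same cells. Of the 93, 71 had over 50% of their 3 dpci UMIs in cardiomyocyte-like wells, and 22 did not. These wells held 80.2% of all UMIs at 3 dpci. A member over 50% can therefore still be under-represented in them, as were STAT3 (55.9%) and PCNA (62.9%). Cluster 6 held over 50% of the UMIs of 16 members, from 11 wells at 3 dpci, and cluster 7 that of cd74a, klf13 and apoeb, from 10 wells. When the plate sums were made from cardiomyocyte-like wells alone, 61 of the 93 still met every condition. Other members sat in very few wells: for 30 members a single well held over 20% of the 3 dpci UMIs. Without each gene's own highest 3 dpci well, an alternative added after seeing the data, 46 members still met the rule. Both conditions were met by 40 members, which had a UMI in 22 to 177 of the 300 wells at 3 dpci.

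**Figure D2:**
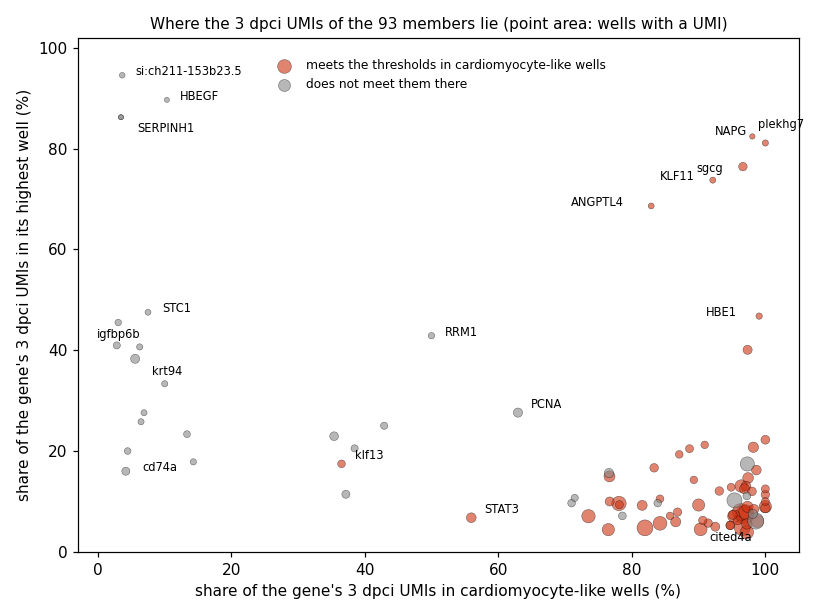
For each of the 93 members, the share of its 3 dpci UMIs in cardiomyocyte-like wells (%, horizontal axis) against the share in its single highest well (%, vertical axis); point area grows with the number of wells with a UMI, and red marks the 61 members that met the thresholds in cardiomyocyte-like wells. Most members lie at the lower right, 22 lie at or under 50% on the horizontal axis, and sgcg, NAPG, plekhg7, KLF11 and ANGPTL4 stand at the upper right with most molecules in 1 cardiomyocyte-like well.

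Among the members spread over many cardiomyocyte-like wells, cited4a was the most abundant with a symbol. Cited4 proteins are transcriptional coregulators that bind CBP and p300, and in mice the gene is induced in the heart by exercise. It had 53.4 CPM at 1 dpci, 479 CPM at 3 dpci (95% counting interval 435 to 526) and 42.4, 50.7 and 60.2 CPM at 7 dpci. The 3 dpci plate stood 7.96 times above the next highest (interval 5.83 to 11.1), and the other 4 plates lay close together. A UMI of cited4a was found in 43.3% of wells at 3 dpci, 10.97% at 1 dpci and 4.21% to 8.50% at 7 dpci, and after thinning to 1000 UMIs in 28.6%, 3.53% and 2.48% to 5.80%. Cardiomyocyte-like wells held 96.5% of its molecules at 3 dpci, no well held more than 4.85%, and its ratio in those wells alone was 9.36.

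The largest ratio belonged to slc9a3.2, of the sodium-proton exchanger family that moves acid out of cells. It had 1 UMI at 1 dpci, 116 UMIs at 3 dpci and 0 on all 3 plates of 7 dpci. This is 128 CPM at 3 dpci against 0.676 CPM at 1 dpci, a ratio of 189 with a counting interval of 33.3 to 7539, or 14.1 when the single UMI is set to the floor of 3 UMIs that the counts of ratios above use, and at least 79.0-fold over 7 dpci with 3 UMIs as the floor over its plates. The molecules came from 52 wells, 97.4% of them in cardiomyocyte-like wells. PELI1, a ubiquitin ligase of Toll-like receptor signalling, had a similar shape at 16.2, 124, 15.1, 6.33 and 0 CPM in plate order, from 58 wells at 3 dpci.

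The most abundant member, ENSDARG00000087665, has no symbol. Its levels were 319 CPM at 1 dpci, 847 CPM at 3 dpci and 224, 206 and 99.8 CPM at 7 dpci. It was counted in 177 of the 300 wells at 3 dpci, so that its 2.65-fold ratio rests on a wide base of cells, 96.9% of its UMIs being in cardiomyocyte-like wells. The plot of the most abundant members shows the level on each plate.

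**Figure D3:**
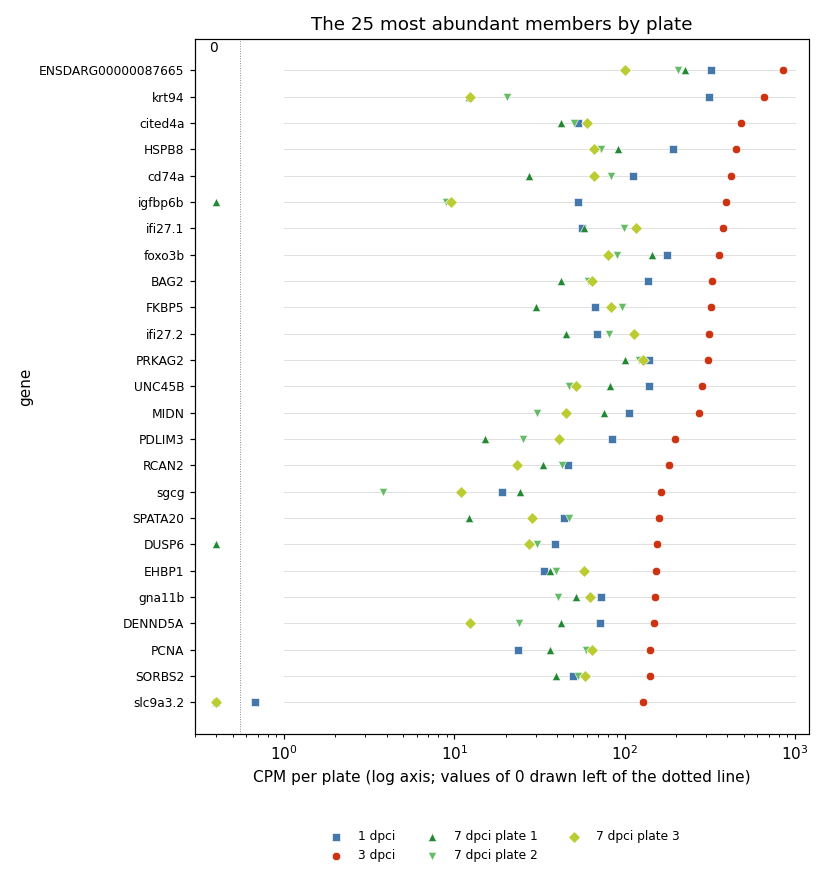
CPM on each of the 5 plates (log axis) for the 25 members most abundant at 3 dpci; red circles are 3 dpci, blue squares 1 dpci and green or yellow symbols the 3 plates of 7 dpci, with values of 0 drawn left of the dotted line. By the rule every red circle is at least 2 times to the right of the others; slc9a3.2 has 3 overlapping symbols at 0, and krt94 falls from 313 CPM at 1 dpci to 12.1 to 20.3 CPM at 7 dpci.

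The named members are described below by function, in groups assembled after their values were seen. Chaperones and protein quality control genes formed a group of 8, which summed to 711 CPM at 1 dpci, 1928 CPM at 3 dpci and 345, 364 and 354 CPM at 7 dpci. All 8 had most of their 3 dpci molecules in cardiomyocyte-like wells, though FKBP5, with 78.1%, was under the 80.2% of all UMIs there. HSPB8, a small heat shock protein that with BAG3 feeds damaged muscle proteins into autophagy, had 191 CPM at 1 dpci, 448 CPM at 3 dpci and 90.9, 72.2 and 65.6 CPM at 7 dpci. BAG2, a cochaperone of Hsp70, had 138, 324, 42.4, 60.8 and 64.3 CPM in plate order. In both genes 3 dpci was highest, 1 dpci came next and the 7 dpci plates were lowest. FKBP5, a cochaperone of Hsp90 that glucocorticoids induce, had 66.9 CPM at 1 dpci, 322 CPM at 3 dpci and 30.3, 96.3 and 83.4 CPM at 7 dpci, where plate 1 was below and plates 2 and 3 above the 1 dpci level. MIDN, which takes nuclear proteins to the proteasome, had 106, 272, 75.7, 30.4 and 45.1 CPM in the same order.

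UNC45B, the chaperone that folds myosin, had 138 CPM at 1 dpci, 286 CPM at 3 dpci and 81.8, 46.9 and 52.0 CPM at 7 dpci. Its ratio of 2.07 was near the limit, and in cardiomyocyte-like wells it was 1.79, under the limit. SPATA20 had 43.9, 160 and 12.1 to 46.9 CPM at 1, 3 and 7 dpci, with all of its 3 dpci molecules in cardiomyocyte-like wells, and rnf207a, a RING finger gene, had 14.9, 81.6 and 5.07 to 12.3 CPM. The remaining member of the group was DNAJB4, an Hsp40 family cochaperone. None of the 20 matched IDs of a cytosolic chaperone list was a member, and that list summed to 10778 CPM at 1 dpci, 10208 CPM at 3 dpci and 6535 to 7302 CPM at 7 dpci. Its IDs differed in course, so the sum does not stand for each of them. For example, hsp70l had 1042, 1249 and 136 to 305 CPM at 1, 3 and 7 dpci, and HSPB1 had 2042, 1823 and 1714 to 1986 CPM. The heat-inducible Hsp70 gene hspa1b missed the rule narrowly with a ratio of 1.98.

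A further 12 members belong to energy and insulin signalling and metabolism, and summed to 499.5 CPM at 1 dpci, 1196 CPM at 3 dpci and 322 to 342 CPM at 7 dpci. foxo3b encodes a FOXO transcription factor that insulin signalling keeps out of the nucleus, and had 178 CPM at 1 dpci, 358 CPM at 3 dpci and 145, 89.9 and 79.3 CPM at 7 dpci. PRKAG2, a regulatory subunit of the energy sensor AMPK, had 139, 307, 99.9, 122 and 129 CPM in plate order. Both were broad, with UMIs in 112 and 130 wells at 3 dpci, and both fell under the limit when only cardiomyocyte-like wells were summed (ratios 1.87 and 1.92). IRS2, an adaptor of the insulin receptor, had 14.2 CPM at 1 dpci, 52.9 CPM at 3 dpci and 9.08 to 20.5 CPM at 7 dpci. SLC16A3, the lactate exporter MCT4, had 18.9, 52.9 and 15.0 to 21.2 CPM at 1, 3 and 7 dpci. It was the only member among the 27 matched IDs of a glycolysis list, whose sum did not peak at 3 dpci (26935 CPM at 1 dpci, 32124 CPM at 3 dpci and 45747 to 53378 CPM at 7 dpci). The IDs of this list differed in course too, so the sum does not stand for each of them. For example, GAPDH had 11228, 12025 and 17913 to 22679 CPM at 1, 3 and 7 dpci. LDHB was highest at 3 dpci, with 2450, 3420 and 1497 to 2702 CPM.

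All 4 members of the circadian clock group, CRY1, cry3b, npas2 and RORA, also met the rule in cardiomyocyte-like wells. Cryptochromes repress the clock, NPAS2 pairs with BMAL1 to drive it, and RORA activates BMAL1. CRY1 had 29.1 CPM at 1 dpci, 73.9 CPM at 3 dpci and 33.3, 13.9 and 17.8 CPM at 7 dpci, and npas2 had 8.11, 41.9, 0, 6.33 and 2.73 CPM in plate order. RORA had 6.76 CPM at 1 dpci, 41.9 CPM at 3 dpci and 7.60 to 10.9 CPM at 7 dpci. cry3b had 4.05, 30.9, 0, 10.1 and 4.10 CPM in plate order. Without its own highest 3 dpci well cry3b was at 26.5 CPM and left the rule, whereas CRY1, npas2 and RORA still met it without theirs. The levels are low, 28 to 67 UMIs per gene at 3 dpci. nr1d2a, a repressor in the same loop, lay just outside the rule at 33.8, 67.3 and 12.1 to 17.7 CPM and a ratio of 1.99.

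Transcriptional regulators other than cited4a were less uniform in their source. klf13, a Kruppel-like factor, had 14.2 CPM at 1 dpci, 69.5 CPM at 3 dpci and 3.03, 11.4 and 1.37 CPM at 7 dpci, but 34 of its 63 UMIs at 3 dpci were in macrophage-like wells. Its ratio was 4.90 over all wells and 2.73 in cardiomyocyte-like wells. KLF3 had 28 of 33 UMIs in cluster 6, and 73.7% of the UMIs of KLF11 were in 1 well. STAT3, the cytokine-activated factor on which zebrafish cardiomyocyte proliferation depends, had 29.1, 65.1, 12.1, 10.1 and 9.57 CPM in plate order, and 55.9% of its 3 dpci molecules were in cardiomyocyte-like wells. STAT3 and cited4a were the members on a regeneration signalling list of 37 matched IDs. That list summed to 3139 CPM at 1 dpci, 2724 CPM at 3 dpci and 609 to 1076 CPM at 7 dpci, so its total did not peak with them.

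Signal transduction and its feedback held 18 members, 14 of which met the rule in cardiomyocyte-like wells. DUSP6, a phosphatase that ERK signalling induces and that switches ERK off, had 39.2 CPM at 1 dpci, 154 CPM at 3 dpci and 0, 30.4 and 27.3 CPM at 7 dpci. RCAN2, a regulator of calcineurin, had 46.6, 181, 33.3, 43.1 and 23.2 CPM in plate order. PRKG1, the cGMP-dependent kinase, had 33.1, 122 and 15.1 to 43.1 CPM at 1, 3 and 7 dpci. All 3 had most of their 3 dpci molecules in cardiomyocyte-like wells. SPRED1, a brake on Ras signalling, CISH, a feedback inhibitor of cytokine receptors, and PIM3, a cytokine-induced kinase, were lower, at 35.3, 70.6 and 41.9 CPM at 3 dpci. Of the G-protein genes, gna11b had 73.0, 150.0 and 40.5 to 62.9 CPM at 1, 3 and 7 dpci, while GNB5 lay at the edge of the rule with a ratio of 2.00. STK35, a kinase, had 6.08, 48.5 and 3.03 to 6.84 CPM, from 25 wells. A receptor and a ligand in this group came from cluster 6: F2R, a thrombin receptor, with 6.25% of its UMIs in cardiomyocyte-like wells, and HBEGF, a ligand of the EGF receptor family, with 26 of its 29 UMIs in 1 well.

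Muscle structure, adhesion and cytoskeleton held 12 members. PDLIM3, a Z-disc protein, had 83.8 CPM at 1 dpci, 198 CPM at 3 dpci and 15.1, 25.3 and 41.0 CPM at 7 dpci. SORBS2, an adaptor of the Z-disc and intercalated disc, had 50.01, 140.0, 39.4, 53.2 and 58.8 CPM in plate order, and EHBP1, which links endocytosis to actin, had 33.8, 152, 36.3, 39.3 and 57.4 CPM. The 7 dpci plates lay below 1 dpci for PDLIM3, on both sides of it for SORBS2 and above it for EHBP1, and at least 95.3% of the 3 dpci molecules of each were in cardiomyocyte-like wells. The focal adhesion genes VCL and ZYX had 43.0 and 66.2 CPM at 3 dpci against 10.1 and 30.4 CPM at 1 dpci. sgcg, a sarcoglycan of the muscle membrane, reached 164 CPM at 3 dpci against 18.9 CPM at 1 dpci and 3.80 to 24.2 CPM at 7 dpci, but 76.4% of its 149 UMIs were in 1 well of cluster 2. Without that well it was at 38.6 CPM. UNC45B and sgcg were the members among 26 matched IDs of a sarcomere and border zone list, which summed to 67550 CPM at 1 dpci, 90056 CPM at 3 dpci and 132369 to 151159 CPM at 7 dpci. Here too the sum does not stand for each ID. For example, MYL7 had 27212, 38013 and 65639 to 78572 CPM at 1, 3 and 7 dpci. tnnc1a was highest at 3 dpci, with 2954, 4710 and 2919 to 3841 CPM.

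Of the transport genes, DENND5A, which acts in Rab-dependent vesicle traffic, had 71.6 CPM at 1 dpci, 148 CPM at 3 dpci and 42.4, 24.1 and 12.3 CPM at 7 dpci. NAPG, a SNARE-recycling protein, had 47 of its 58 UMIs at 3 dpci in 1 well. That well of cluster 2 held 6649 UMIs, 3.10 times the plate median, and was also the main source of sgcg and plekhg7, whose 42 of 51 UMIs lay there. These 3 genes each had under 20 CPM at 1 dpci. Another well of cluster 2, with 13385 UMIs and 6.24 times the median, was the highest well for 22 members. It held over 40% of the molecules of KLF11, FAM13A and ANGPTL4, an inhibitor of lipoprotein lipase.

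The interferon-inducible ifi27 family gave 3 members, ifi27.1, ifi27.2 and ifi27.6, which are close paralogs, so reads may be shared between their rows. ifi27.1 had 56.1 CPM at 1 dpci, 380 CPM at 3 dpci and 57.5, 98.8 and 116 CPM at 7 dpci, and ifi27.2 had 69.0, 312, 45.4, 81.1 and 114 CPM in plate order. ifi27.6 had 5.41 CPM at 1 dpci, 55.1 CPM at 3 dpci and 3.03 to 6.84 CPM at 7 dpci, a ratio of 8.06 (interval 3.24 to 25.9). Cardiomyocyte-like wells held 97.1%, 73.5% and 98.0% of their molecules at 3 dpci, and 107, 86 and 31 wells had a UMI. None of the 14 matched IDs of an interferon and innate response list was a member, but only 3 of them reached 30 CPM at 3 dpci. The sum of that list was 816 CPM at 1 dpci, 758 CPM at 3 dpci and 668 to 978 CPM at 7 dpci. IRF7, an interferon regulatory factor, was just under the level limit with 29.8 CPM at 3 dpci and a ratio of 4.41.

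Genes known from other cell types were also among the members, with different sources. cd74a, the invariant chain of MHC class II, had 113 CPM at 1 dpci, 423 CPM at 3 dpci and 27.3, 83.0 and 65.9 CPM at 7 dpci, and 323 of its 384 UMIs at 3 dpci were in the 10 macrophage-like wells. apoeb, an apolipoprotein of macrophages, had 25 of 29 UMIs in 1 well. Both stand on the macrophage marker list, whose other 16 matched IDs did not meet the rule and whose sum was highest at 1 dpci. HBE1, a globin gene, had 99 of 108 UMIs in cluster 2, which is cardiomyocyte-like, and 46.8% in 1 well of 1005 UMIs. In cardiomyocyte-like wells it met the rule with a ratio of 4.02.

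krt94, a keratin, was second in abundance, with 313 CPM at 1 dpci, 654 CPM at 3 dpci and 12.1, 20.3 and 12.3 CPM at 7 dpci. Only 5.57% of its 593 UMIs at 3 dpci were in cardiomyocyte-like wells and 557 were in the 11 wells of cluster 6. It was counted in fewer wells at 3 dpci than at 1 dpci, 11.3% against 17.2%, and in cardiomyocyte-like wells its ratio was 1.12. The pattern of igfbp6b, a binding protein of insulin-like growth factors, was similar: 53.4 CPM at 1 dpci, 392 CPM at 3 dpci and 0, 8.87 and 9.57 CPM at 7 dpci, with 344 of 355 UMIs in cluster 6. The secreted and matrix group as a whole had this source. None of its 6 members (igfbp6b, STC1, NTN1, SULF2, EMILIN2 and SERPINH1) met the rule in cardiomyocyte-like wells. A well of cluster 6 with 23555 UMIs, 10.97 times the plate median, was the highest well for 9 members. It held 104 of the 110 UMIs of si:ch211-153b23.5 and 25 of the 29 UMIs of SERPINH1, the collagen chaperone. STC1, stanniocalcin, had 47.5% of its molecules in another well of that cluster, which also held 146 of the 355 UMIs of igfbp6b.

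**Figure D4:**
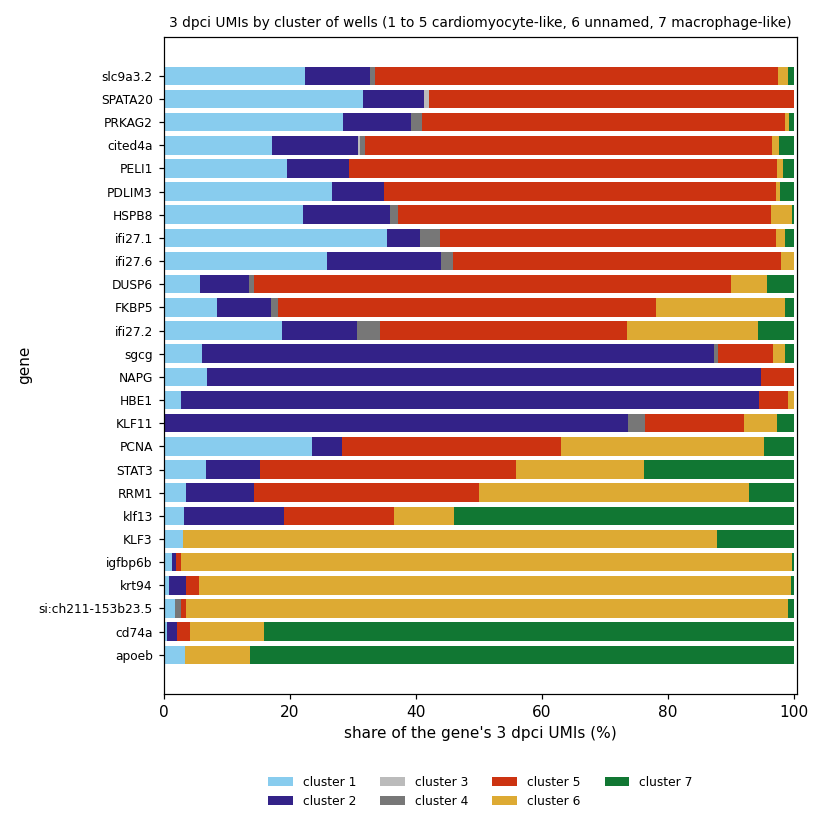
Share of each gene's 3 dpci UMIs (%, horizontal axis) that lay in each of the 7 clusters of wells, for 26 named members chosen after their values were seen. Bars from slc9a3.2 to ifi27.2 are mostly clusters 1, 2 and 5, sgcg to KLF11 mostly cluster 2, and KLF3 to si:ch211-153b23.5 mostly cluster 6, while cd74a and apoeb are mostly cluster 7.

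The DNA synthesis genes PCNA, the sliding clamp of DNA polymerase, and RRM1, a subunit of ribonucleotide reductase, were the members among 21 matched IDs of a DNA replication and S phase list. PCNA had 23.7 CPM at 1 dpci, 140.3 CPM at 3 dpci and 36.3, 59.6 and 64.3 CPM at 7 dpci, all 3 plates of 7 dpci being above 1 dpci. Of its 127 UMIs at 3 dpci, 41 were in cluster 6, and its ratio was 2.18 over all wells and 1.68 in cardiomyocyte-like wells. RRM1 had 6 UMIs at 1 dpci, 28 at 3 dpci, 12 of them in 1 well, and 0 at 7 dpci. The S phase list summed to 134 CPM at 1 dpci, 395 CPM at 3 dpci and 109, 162 and 148 CPM at 7 dpci. The other 19 IDs did not meet the rule, but only 3 of the 21 reached 30 CPM at 3 dpci. Most of the 19 thus failed on level, whatever their course over the plates. None of 18 matched IDs of a mitosis list was a member, and only 1 of those 18 reached 30 CPM at 3 dpci.

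Within the 3 dpci plate, cardiomyocyte-like members were spread unevenly between clusters 1 and 5, its main groups of cardiomyocyte-like wells with 132 and 103 wells. Members were among the genes used for clustering, so this is a description. Of the 71 members with over 50% of their UMIs in cardiomyocyte-like wells, 63 had a higher CPM in cluster 5 than in cluster 1, with a median ratio of 1.96. The share of all genes that were higher in cluster 5 was not computed, so this count is not read as a trait of the members. Over the wells of all plates, PELI1, cited4a, DUSP6, MIDN and IRS2 were among the 10 leading genes of cluster 5. As 103 of the 144 wells of cluster 5 were of 3 dpci, this partly repeats how the members were chosen. On the 3 dpci plate alone, DUSP6 was at 33.7 CPM in cluster 1 and 271 CPM in cluster 5. IRS2 was at 12.6 and 99.8 CPM there, and CRY1 at 21.0 and 107 CPM. ifi27.1 and SPATA20 were about level, at 514 and 468.5 CPM and at 193.5 and 215 CPM. Wells of cluster 5 were deeper than those of cluster 1, with medians of 3256 and 1405 UMIs. Among the immediate early genes that the rule left out by name, another course over the plates was seen: ATF3 had 577, 206 and 15.0 to 36.4 CPM at 1, 3 and 7 dpci, JUN 270.4, 180.0 and 9.57 to 33.3 CPM, and egr1 184, 160.1 and 1.27 to 6.05 CPM. Within the 3 dpci plate they too were higher in cluster 5 than in cluster 1, with egr1 at 115 and 4.21 CPM and JUN at 71.6 and 8.41 CPM. ATF3 was at 69.1 and 33.7 CPM. For each of these genes both clusters were below the level of the whole plate, so other wells held higher levels. The part of these genes in the members' levels was not tested.

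The comparison of 7 with 1 dpci asks whether members returned to their 1 dpci level, which is itself a level after injury. There was no plate of uninjured hearts, so levels before injury are not known. The rule did not compare these days, but it capped both the 1 dpci level and the highest of 3 plates of 7 dpci, so the members' values and calls here are not independent of how they were chosen and are given as a description beside those of all genes. Most were lower at 7 than at 1 dpci, as were most genes tested. All 3 plates of 7 dpci were below 1 dpci for 61 members and above it for 8. Of the 84 members that passed the filter on low levels, this was 54 (64.3%) and 8 (9.52%), beside 56.4% and 15.2% of the 5189 genes tested. The 8 were ifi27.1, EHBP1, PCNA, DYRK2, RORA, si:dkey-19a16.7, PPP1R3D and ZRANB1. In edgeR's quasi-likelihood test over 5189 genes with Benjamini-Hochberg adjustment, 2.87% of genes were called higher and 4.74% lower at 7 dpci (149 and 246 genes; with library totals in place of TMM scaling 49 and 373). Of the 84 members tested, none was called higher and 2 were called lower, krt94 and si:ch211-153b23.5. At an unadjusted p under 0.05, 2 members were higher and 10 lower, against 9.75% and 12.8% of all genes tested (506 and 663). DESeq2 called 0 members higher and 2 lower, against 5.98% and 4.29% of 4384 genes (262 and 188). The median log2 fold change was -0.30 over the 84 members and -0.12 over all genes tested, and library totals moved these to -0.87 and -0.68.

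krt94 fell by 3.76 ± 0.42 on the log2 scale (edgeR adjusted p 0.0056), with each of the 3 later plates below the earlier one. Here and below, the value after ± is an approximate SE, the log2 change divided by the square root of edgeR's F statistic. In cardiomyocyte-like wells alone the change of krt94 was -1.19 with an edgeR adjusted p of 0.475. si:ch211-153b23.5 had 41 UMIs at 1 dpci and 0 on the 7 dpci plates, at least 17.1-fold lower with 3 UMIs as the floor over these plates (edgeR adjusted p 0.0408), and was not called without plate 2 of 7 dpci (adjusted p 0.0923). Both genes came mainly from cluster 6, which held 22 wells at 1 dpci and 0, 1 and 1 at 7 dpci. A UMI of krt94 was found in 17.2% of wells at 1 dpci and 1.22% to 2.02% at 7 dpci. Which plates entered also moved the calls: without plate 1 of 7 dpci, 10 of 92 members were called, 4 higher and 6 lower, against 10.8% and 12.6% of 5354 genes (578 and 677). The 4 higher ones were PCNA, ifi27.1, ifi27.2 and FKBP5, with log2 changes of 1.14 to 2.09. Without plate 2 only krt94 was called, lower, against 1.86% of genes called lower and 0.619% higher. Without plate 3 igfbp6b was called as well, against 6.04% lower and 2.12% higher. PCNA in the test of all plates was higher at 7 dpci with a log2 change of 1.77 ± 0.57 and did not pass (edgeR adjusted p 0.108).

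**Figure D5:**
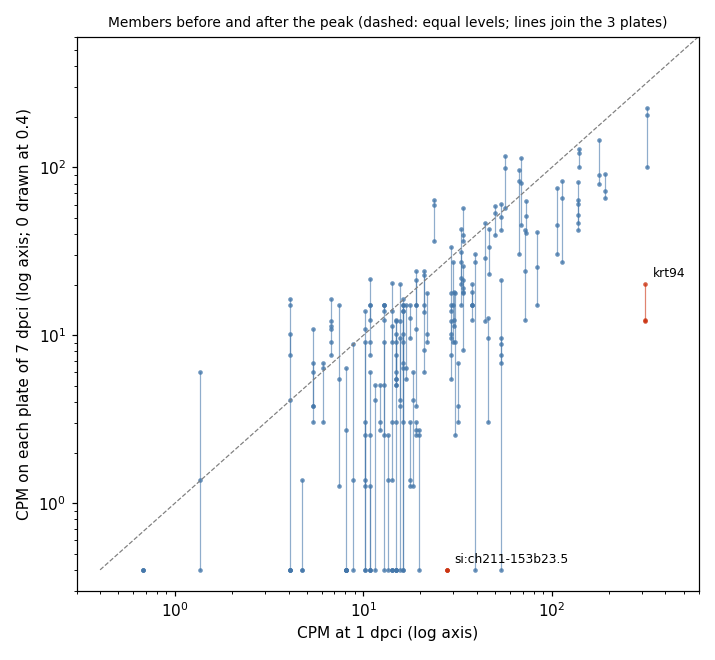
CPM at 1 dpci (horizontal log axis) against CPM on each of the 3 plates of 7 dpci (vertical log axis, 0 drawn at 0.4) for the 93 members; thin lines join the plates of a gene, the dashed line marks equal levels, and red marks the 2 genes called by edgeR. Most members lie under the dashed line, and krt94 and si:ch211-153b23.5 lie far below it.

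Among the fixed lists, the regeneration signalling list had 0 of 26 tested IDs higher and 8 lower at 7 than at 1 dpci, the sarcomere and border zone list 5 higher and 2 lower of 20, the glycolysis list 6 higher and 0 lower of 23, and the S phase list none called of 5. No member of these lists was among those called. The medians of the log2 changes were -1.84, 0.52, 0.51 and 0.37, beside -0.12 over all genes tested.

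At the limits of the rule, GNB5, F2R and snrkb were just inside the ratio of 2 (2.00, 2.01 and 2.01), and nr1d2a, hspa1b and DYRK1B just outside (1.99, 1.98 and 1.97). KLF12, ZRANB1 and EMILIN2 had 30.9 CPM at 3 dpci, and IRF7, mss51 and ZCCHC24 had 29.8 CPM. With the same limits on level and ratio, 424 genes were high at 1 dpci only and 46 at 7 dpci only. For 7 dpci the mean of the 3 plates had to reach the level and the lowest of them the ratio, so these counts are not like for like. A member at 30.9 CPM had 28 UMIs, and 11 members had under 30 UMIs at 3 dpci. The 7 members with no UMI at 7 dpci were slc9a3.2, si:ch211-153b23.5, KLF3, HBEGF, apoeb, RRM1 and EMILIN2. A count of 0 over these plates allows a level of up to 1.62 CPM, for counting error only.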

How the data were processed

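Single cells of 5 SORT-seq plates were analysed (1 of 1 dpci, 1 of 3 dpci and 3 of 7 dpci), grouped by their labels. Deposited were tables of estimated counts, with UMIs by gene and by well, which the authors corrected for collisions among 4096 UMI barcodes and did not scale to depth. Reads had been mapped by the authors to the Zv9 genome, per the methods. The submitters' processing notes name BWA 0.6.2, and the annotation is not given in the sources used here. Symbols from a table of Ensembl IDs named 14285 of 17997 IDs (79.4%), often by the human gene, so which paralog a row counts can be uncertain. No sequence was used.

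Wells with 500 or more UMIs outside the ERCC spike-ins were kept, which took 30.1% to 55.4% of all UMIs per plate. Mitochondrial genes (8.81% to 15.6%) stayed in the totals. Doublets were not called here, the sort having removed them according to the methods, and an alternative left out wells above 3 times the plate median. All 384 well numbers recur on every plate by design. UMIs were summed per plate and given as CPM, with exact Poisson or binomial 95% intervals for counting error only. Wells were clustered with Seurat 5.3.0 (500 variable genes, 8 dimensions, resolution 0.7, per the methods). A non-cardiomyocyte name needed at least 3 markers raised 2-fold in 10% of wells, with 1 or more among the cluster's 10 leading genes. These had to outnumber the raised cardiomyocyte markers and be at least 2 times those of the next class. A cardiomyocyte-like name needed at least 3 cardiomyocyte markers in 50% of wells. It also needed fewer than 3 raised markers of every other class, or no more of them than raised cardiomyocyte markers. This naming rule was set after seeing the clusters. By it cluster 2, with 267 of its 296 wells from 1 dpci, is cardiomyocyte-like although 3 epicardial or fibroblast markers were raised in it beside 3 cardiomyocyte markers. Cluster names were rebuilt here, so a difference from the study may come from them.

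Plate sums, rounded to whole numbers, were tested for 7 against 1 dpci with edgeR 4.0.16 (quasi-likelihood, TMM, genes with a mean of 10 CPM or more, two-sided, adjusted p under 0.05) in R 4.3.3. All 5 plates entered the fit. Only 7 dpci has replicate plates, so its spread was taken to hold for the single plates of the other days. The script was tested on simulated data. DESeq2 1.42.0, other scalings, filters and well sets, and leaving out each 7 dpci plate were alternatives.

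The members and the gene lists were chosen with earlier results of these data known. Named are the 25 most abundant members, the 10 of highest ratio, those on a gene list, those nearest the limits, those called between 7 and 1 dpci and the 10 most concentrated in 1 well. Other members are named as examples chosen after their values were seen. Of the fixed lists (S phase, mitosis, cyclins, chromatin, nuclear transport, ribosome biogenesis, ER folding, chaperones, glycolysis, TCA cycle, amino acid synthesis, lipid synthesis, sarcomere, actin, regeneration signalling, hypoxia and interferon), only S phase, glycolysis, sarcomere and regeneration signalling held a member.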

Additional observations from a re-analysis of the deposited data

How the results depend on the processing

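The number of genes meeting the rule was 93 and moved with its limits and scaling: 56 with TMM effective totals (51 of the 93 among them), 31 at 100 CPM, 256 at a ratio of 1.5 and 36 at a ratio of 3. Without each gene's highest 3 dpci well, chosen after seeing the data, it was 46. Other well sets gave similar numbers but other genes: 110 genes in cardiomyocyte-like wells (61 of the 93), 109 without wells above 3 times the plate median (53), 90 with wells scaled to 1 total (49), 97 with 1000 UMIs per well (85) and 100 without mitochondrial genes (82). Leaving out a plate of 7 dpci gave 106 to 109. At 3 dpci the 30 wells above 3 times the median held 33.6% of all UMIs and 42.8% of the members'. The cause of the other changes was not tested.

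The log2 ratio of 3 dpci to the next plate reversed without the deep wells for krt94 (-0.54), si:ch211-153b23.5 (-0.75), NAPG (-0.58), STC1 (-1.17), ANGPTL4 (-0.86) and SERPINH1 (-0.54). With wells scaled to 1 total it reversed for krt94 (-0.15) and SERPINH1 (-0.40). Without the highest 3 dpci well it reversed for si:ch211-153b23.5 (-2.07), NAPG (-0.32), KLF11 (-0.059), ANGPTL4 (-0.30), HBEGF (-1.29), SERPINH1 (-1.54) and apoeb (-0.88), a change that follows from leaving out that well. In cardiomyocyte-like wells no ratio reversed, but for 10 members both sides held 3 UMIs or fewer and gave no value.

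Of all genes, 395 were called between 7 and 1 dpci. This became 708 with no filter on CPM, 31 in cardiomyocyte-like wells and 136 to 1255 when a 7 dpci plate was left out. The members called went from 2 to 5 of 93 with no filter, beside 708 of 17937 genes. In cardiomyocyte-like wells 0 of 74 members were called, beside 31 of 4378 genes. At an unadjusted edgeR p under 0.05 these wells gave 11 of the 74 members, 2 higher at 7 dpci and the others lower. Of the 4378 genes, 354 were higher and 248 lower. Without the deep wells 4 of 71 members were called, beside 265 of 4295 genes. Leaving out a 7 dpci plate gave 1 to 10 members. For krt94 the adjusted p ranged from 6.07e-13 to 0.475 over these alternatives and DESeq2, and for si:ch211-153b23.5 from 9.27e-05 to 0.0923, while in cardiomyocyte-like wells and without the deep wells it was below the filter and not tested. No paired analysis was possible because 1 and 3 dpci have a single plate each.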

Other observations

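After thinning to 1000 UMIs per well, 5 of the 93 members had a UMI in a smaller share of wells at 3 dpci than at 1 dpci, although their plate sums were higher: krt94 (6.64% against 9.19%), si:ch211-153b23.5 (1.66% against 2.12%), SERPINH1 (0.830% against 1.06%), YWHAG (3.73% against 4.95%) and rnf207a (1.24% against 2.12%). The 3 first named were mainly counted in cluster 6, and YWHAG and rnf207a in cardiomyocyte-like wells. Wells were thinned only once, at random. Before thinning the direction was opposite for YWHAG (12.0% of wells at 3 dpci against 8.15% at 1 dpci) and rnf207a (13.7% against 4.39%). It was the same for krt94 (11.3% against 17.2%), si:ch211-153b23.5 (2.33% against 3.13%) and SERPINH1 (1.33% against 1.88%). The lower shares of YWHAG and rnf207a are thus not read as a trait of these genes.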
